A study of Mus musculus with 4 samples.

Results

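The genes described here encode the motors and subunits of 3 families of ATP-dependent chromatin remodellers, SWI/SNF, ISWI and INO80, in nuclear RNA of mouse fibroblasts after induction of CDX2. They are 36 named genes, and all 36 had at least 1 row among the 25177 gene symbols of the authors' deposited table. Where a gene had several RefSeq transcripts, the row with the highest mean level stood for it. The cells were NIH-3T3, an established mouse embryonic fibroblast line, and all of them stably carried H2B-mCherry, the rtTA3G transactivator and a TRE3G-controlled CDX2 transgene. For 2 libraries CDX2 was induced with 500 ng/ml doxycycline over 6 h, and for the other 2 the cells received only solvent. Without cells that received doxycycline but lacked the transgene, effects of CDX2 and of doxycycline itself cannot be told apart. The labels used here do not say whether the line is a single clone.

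Chromatin remodellers use the energy of ATP to slide, evict or exchange nucleosomes, and so set which stretches of DNA other proteins can reach. SWI/SNF complexes (BAF, PBAF and the noncanonical form ncBAF) share a motor and part of a core and differ in other subunits, among them those for targeting. They open chromatin at enhancers and promoters. ISWI complexes mostly space nucleosomes evenly, and members of the INO80 family slide nucleosomes or exchange histone variants. CDX2 is a homeobox transcription factor of intestine, trophectoderm and the posterior embryo.

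The source is 1 row per transcript with a fold change and a mean level, on a scale read here as CPM (counts scaled to a common library size), so the text gives group levels implied by those values and no level per library. Cdx2 itself had an implied level of 612 CPM with doxycycline, against 4.96 CPM without, in the authors' deposited table. Of 8 fibroblast markers, Col1a1 averaged 2086 CPM and Vim 1376 CPM over the libraries. In the authors' limma test 6 of the 8 fell at an adjusted p under 0.05, beside 13.4% of all tested genes. Thy1 missed that threshold with a value above 0 (log2 fold change 0.30 ± 0.12, adjusted p 0.0962) in the authors' deposited table. S100a4 missed it with a value below 0 (-0.12 ± 0.060, adjusted p 0.200) in the authors' deposited table. Summed, the 8 reached 5479 CPM with doxycycline and 6626 CPM without, and the part of this shift in the remodeller values was not tested. Epithelial Krt18 had no reads, and Epcam, Krt8 and Krt19 each averaged under 2 counts per library in the authors' deposited table. Krt19, at 1.18 counts, had a log2 fold change of 3.60 ± 0.62 there (adjusted p 2.07e-07 in the authors' limma test). That rise rests on too few reads to be called here. Cdh1, the E-cadherin gene, was low and fell to 0.464 CPM with doxycycline, against 1.43 CPM without (-1.62 ± 0.22, adjusted p 2.14e-11), in the authors' deposited table, and its part in the remodeller values was not tested. The effective depth was about 45700000 counts per library, as a geometric mean.

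Most remodeller genes had no called change after 6 h of CDX2 induction, and the clearest change was a fall of Bcl7a, a small SWI/SNF subunit gene. Of the 36 members, 34 averaged 10 counts or more per library, the condition for a test, as did 12355 genes in all. A change was called at an adjusted p under 0.05, taken from the authors' limma test. With doxycycline, 2 members rose (Smarcd3 and Bptf), 4 fell (Bcl7a, Smarcc1, Ino80 and Baz1a) and 28 missed the threshold in the authors' deposited table. The 6 called members are 17.6% of those tested, beside 24.7% of all tested genes called in either direction, 11.3% higher and 13.4% lower. Without the count floor the order turned round, with 16.7% of 36 members called beside 13.1% of all 25177 genes, most of which then have few or no reads. The number of calls therefore does not set the members apart as a responding group. With fold changes shifted so that the median of 80 cytosolic ribosomal protein genes is 0, 4 members rose and 4 fell, Arid1b and Baz2a being the additions, beside 29.2% of all tested genes called. With the trend of fold change on level removed, 3 rose and 3 fell, beside 26.3% of all tested genes called. In bulk RNA, a lower level in all cells cannot be told apart from the loss of a transcript in some of them.

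The changes were also small in size. The median log2 fold change of the 34 members was -0.022, beside -0.0011 over all tested genes, and the median of its absolute value was 0.099, beside 0.13, in the authors' deposited table. No member changed 2-fold, whereas 207 genes (1.68% of those tested) did in the authors' deposited table. For 22 of the 34 members the 95% interval of the change lay wholly within 1.2-fold in either direction, which held for 37.2% of all tested genes. Their rows also hold more reads than most, with a median of 44.8 CPM, not scaled for length, beside 16.7 CPM over all tested genes, and the standard error narrows with level. At an unadjusted p under 0.05 there were 11 members, or 32.4%, beside 36.4% of all tested genes in the authors' deposited table.

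**Figure D1:**
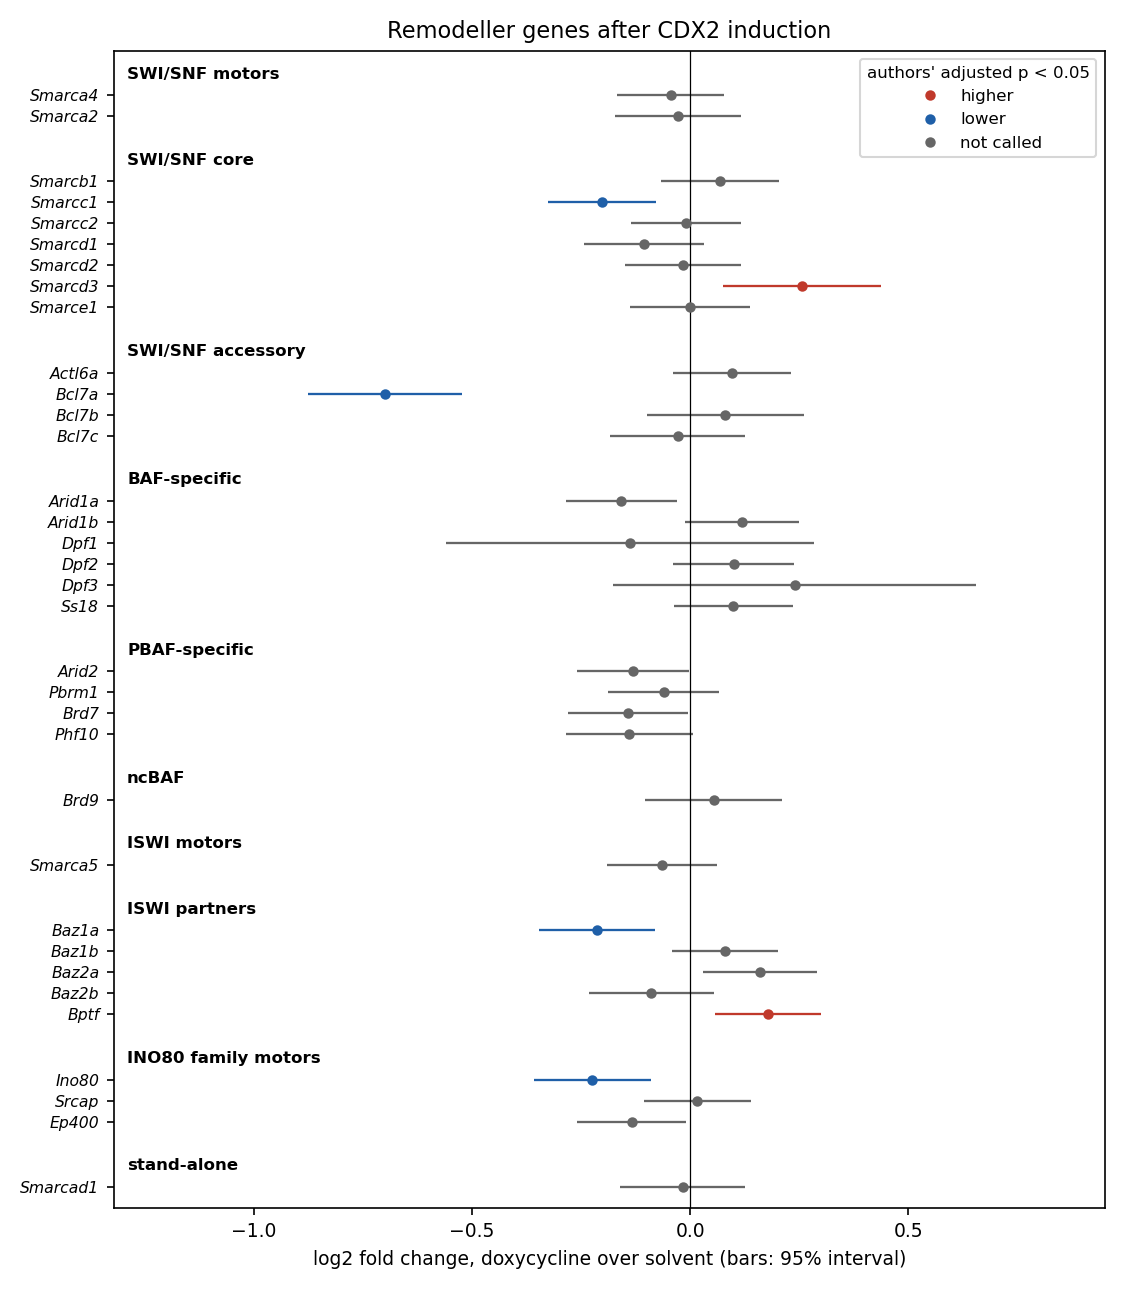
Log2 fold change of the 34 tested remodeller genes, doxycycline over solvent (x axis), by complex and role; points are the fold changes of the authors' deposited table and bars their 95% intervals. Bcl7a at -0.70 stands apart to the left, and the 5 other called genes lie between -0.22 and 0.26.

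The catalytic motors of SWI/SNF showed no detectable change. Smarca4, which encodes BRG1, had an implied level of 159 CPM with doxycycline and 164 CPM without, a log2 fold change of -0.045 ± 0.063 (± standard error) in the authors' deposited table. Its paralogue Smarca2, which encodes BRM, had 23.6 CPM with doxycycline and 24.0 CPM without, a log2 fold change of -0.027 ± 0.074, in the authors' deposited table. The adjusted p was 0.873 for each, and the 95% intervals (-0.17 to 0.078 for Smarca4, -0.17 to 0.12 for Smarca2) reach no further than 1.13-fold. These bounds rest on standard errors that follow a trend common to all transcripts and not each gene's own replicates. Per kilobase of exon, Smarca4 made up 86.0% of the summed level of both motors with doxycycline and 86.1% without. The short Smarca2 transcripts that start far inside the gene (NM_026003 and NM_001347439) had log2 fold changes of -0.037 and -0.045, beside -0.027 for the full-length row, in the authors' deposited table.

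Among the core subunits, on which the complex is assembled, the authors' deposited table has 1 of 7 higher, 1 lower and 5 uncalled. Over all tested genes 24.7% were called in either direction. Smarcc1, which encodes the BAF155 scaffold subunit (mm10 chromosome 9, 110132024 to 110240178), fell to 140 CPM with doxycycline, against 161 CPM without. Its log2 fold change was -0.20 ± 0.063 with an adjusted p of 0.0127 in the authors' deposited table. With the trend of fold change on level removed, its adjusted p was 0.127, so the call depends on that choice. Its partner and paralogue Smarcc2 (BAF170) stood at 97.4 CPM with doxycycline and 98.1 CPM without, a log2 fold change of -0.0095 ± 0.064 in the authors' deposited table. Smarcc1 gave 57.6% of the summed per-kilobase level of the pair with doxycycline and 60.8% without.

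Smarcd3, the BAF60C gene known for its part in heart and skeletal muscle development (chromosome 5, 24592622 to 24602002), rose to 10.5 CPM with doxycycline, against 8.79 CPM without. Its log2 fold change was 0.26 ± 0.092 with an adjusted p of 0.0372 in the authors' deposited table, and 0.0654 once the trend with level was removed. About 33.4% of its annotated exon bases overlap exons of Chpf2 on the other strand, and no label used here says whether the counting used strand. Chpf2 itself had a log2 fold change of 0.070 ± 0.067 in the authors' deposited table, and its part in the Smarcd3 value was not tested. The other 2 BAF60 genes, Smarcd1 (-0.11 ± 0.070) and Smarcd2 (-0.016 ± 0.068), were not called in the authors' deposited table. Smarcd2 was the most abundant of the 3 per kilobase, with 53.1% of their summed level with doxycycline and 53.6% without.

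Smarcb1, which encodes the SNF5 subunit lost in rhabdoid tumours, had 46.9 CPM with doxycycline and 44.7 CPM without, a log2 fold change of 0.069 ± 0.069 in the authors' deposited table. Smarce1, which encodes the HMG-box subunit BAF57, had 38.1 CPM in both groups, a log2 fold change of 0.00033 ± 0.070 in the authors' deposited table, the smallest of any tested member.

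Bcl7a showed the largest change of the tested members. BCL7 proteins are small accessory subunits of SWI/SNF, and Bcl7a is named after a human gene rearranged in B cell lymphoma. Its implied level was 8.04 CPM with doxycycline and 13.0 CPM without, at mm10 chromosome 5, 123344448 to 123374083 (NM_029850). The fall was 1.62-fold (log2 fold change -0.70 ± 0.090), with a 95% interval of -0.88 to -0.52 and an adjusted p of 5.09e-13 in the authors' deposited table. Of all tested genes, 4.35% changed by more than Bcl7a in either direction, whereas 26.5% to 39.2% changed by more than each of the 5 other called members. It was the only called member that stayed called when all standard errors were widened 2.08-fold (adjusted p 0.00649), the robust SD of t over the tested genes.

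The paralogues of Bcl7a were not called. Bcl7b had 9.96 CPM with doxycycline and 9.41 CPM without (0.081 ± 0.092, log2 fold change ± standard error), and Bcl7c had 17.3 CPM with doxycycline and 17.7 CPM without (-0.029 ± 0.079), in the authors' deposited table. The log2 fold change of Bcl7a differed from that of Bcl7b by -0.78 (95% interval -1.03 to -0.53) and from that of Bcl7c by -0.67 (95% interval -0.90 to -0.44). Both intervals also excluded 0 with widened standard errors (-1.30 to -0.26 and -1.16 to -0.18). Per kilobase of exon, Bcl7a made up 19.5% of the summed level of the 3 BCL7 genes with doxycycline and 28.8% without, and Bcl7b 55.4% with doxycycline and 47.8% without. These shares depend on the row taken for Bcl7c: with its shorter row (NM_009746, 954 bases) in place of the longer one (6349 bases), Bcl7a made up 8.62% with doxycycline and 13.3% without, and Bcl7c, at 66.9% with doxycycline and 64.6% without, was the most abundant of the 3. Of 5 other tested genes that start within 200 kb of Bcl7a, Mlxip, at 50350 bases, was the 1 called, and it fell (-0.24 ± 0.068, adjusted p 0.00573) in the authors' deposited table. Over all tested genes 24.7% were called, so this count does not set the stretch apart. Within 200 kb of Ino80, 2 of 9 such genes rose and 1 fell, and near Baz1a 1 of 4 fell. Near Smarcc1, Smarcd3 and Bptf none was called. Actl6a, which encodes the actin-related subunit BAF53A of dividing cells, had 45.4 CPM with doxycycline and 42.5 CPM without (0.096 ± 0.069) in the authors' deposited table.

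The subunits that distinguish BAF from PBAF gave 0 calls among 10 tested genes in the authors' deposited table, beside 24.7% of all tested genes called. At an unadjusted p under 0.05 there were 3 of them, beside 36.4% of all tested genes. So short a list does not set these subunits apart. Arid1a, which encodes the large DNA-binding subunit of BAF that is often lost in human cancers, had 89.2 CPM with doxycycline and 99.5 CPM without, a log2 fold change of -0.16 ± 0.065 with an adjusted p of 0.0860 in the authors' deposited table. Its alternative, Arid1b, had 62.5 CPM with doxycycline and 57.6 CPM without, a log2 fold change of 0.12 ± 0.067 with an adjusted p of 0.295, in the authors' deposited table. Neither passed at the adjusted threshold. Without adjustment, the 95% interval of Arid1a alone excluded 0 (-0.28 to -0.031), and that of Arid1b included it (-0.012 to 0.25). The unadjusted interval of their difference, Arid1a minus Arid1b, also excluded 0 (-0.28, -0.46 to -0.094). It included 0 with widened standard errors (-0.65 to 0.10). Arid1a made up 65.4% of the summed per-kilobase level of this pair with doxycycline and 69.6% without.

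Dpf2, a plant homeodomain reader of histone tails, had 36.9 CPM with doxycycline and 34.4 CPM without (0.10 ± 0.071) in the authors' deposited table. Its tissue-restricted relatives were scarce: Dpf1, known from neurons, averaged 40.0 counts per library and Dpf3, known from heart and muscle, 43.5. Neither was called. Their log2 fold changes of -0.14 ± 0.21 and 0.24 ± 0.21 in the authors' deposited table have 95% intervals of -0.56 to 0.28 and -0.18 to 0.66. These are too wide to show changes of the size seen in the called members apart from Bcl7a. Ss18, whose human homologue is fused in synovial sarcoma, stood at 39.4 CPM with doxycycline and 36.8 CPM without (0.099 ± 0.070) in the authors' deposited table.

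The 4 PBAF genes all had log2 fold changes below 0, and none passed, in the authors' deposited table. Arid2 was at -0.13 ± 0.065, the polybromo gene Pbrm1 at -0.060 ± 0.065, the bromodomain gene Brd7 at -0.14 ± 0.070 and Phf10 at -0.14 ± 0.074 in the authors' deposited table. Their adjusted p ranged between 0.196 for Brd7 and 0.785 for Pbrm1 in the authors' deposited table. Over all tested genes 50.3% had a value below 0, and the 4 values share 1 set of libraries. Brd9, the bromodomain subunit that marks ncBAF, had 15.6 CPM with doxycycline and 15.0 CPM without (0.054 ± 0.080) in the authors' deposited table.

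Among ISWI genes the motor Smarca5 was not called, and 2 partner genes changed, in opposite directions. Smarca5, which encodes the SNF2H motor, had 105 CPM with doxycycline and 110 CPM without, a log2 fold change of -0.064 ± 0.064 in the authors' deposited table, with an adjusted p of 0.739. Its paralogue Smarca1, which encodes SNF2L and is known from differentiating neurons, shows no reads in the row that the authors' deposited table gives. Of 5 tested partner genes, Bptf rose, Baz1a fell and 3 missed the threshold in the authors' deposited table, beside 24.7% of all tested genes called. Bptf, the large subunit of the NURF complex with readers for histone marks, rose to 173 CPM with doxycycline, against 153 CPM without (0.18 ± 0.062, adjusted p 0.0300) in the authors' deposited table. Baz1a, which encodes the ACF1 subunit of the ACF and CHRAC complexes (chromosome 12, 54892989 to 54986336), fell to 53.7 CPM with doxycycline, against 62.2 CPM without (-0.21 ± 0.068, adjusted p 0.0141) in the authors' deposited table.

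Baz1b, which encodes WSTF, was the most abundant member per kilobase, with 32.4 CPM per kb with doxycycline and 30.6 CPM per kb without. Its log2 fold change was 0.079 ± 0.062 in the authors' deposited table, with an adjusted p of 0.543. It lies next to Bcl7b on chromosome 5 (Bcl7b at 135168372 to 135181852, Baz1b at 135187323 to 135246129), in the stretch that corresponds to the human Williams syndrome region. The values of these neighbours, 0.081 ± 0.092 for Bcl7b and 0.079 ± 0.062 for Baz1b, both missed the threshold. Baz2a, which encodes the TIP5 subunit of the nucleolar remodelling complex, had 65.3 CPM with doxycycline and 58.4 CPM without (0.16 ± 0.066, adjusted p 0.0911), and Baz2b stood at -0.089 ± 0.073, in the authors' deposited table. With the trend with level removed, Baz2a and Baz1b were both called higher (adjusted p 0.0161 and 0.0355). Cecr2, of a remodelling complex known from neural tube closure, averaged 5.83 counts per library and was not tested.

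Within the INO80 family, Ino80 fell while Srcap and Ep400 missed the threshold in the authors' deposited table. Ino80, the motor of the complex of the same name (chromosome 2, 119373043 to 119477687), fell to 43.5 CPM with doxycycline, against 50.8 CPM without. Its log2 fold change was -0.22 ± 0.068 with an adjusted p of 0.00939 there. Srcap, a motor that exchanges a histone variant into nucleosomes, had 144 CPM with doxycycline and 142 CPM without (0.017 ± 0.063, adjusted p 0.873) in the authors' deposited table. Ep400, the motor found with the TIP60 acetyltransferase, had 104 CPM with doxycycline and 114 CPM without (-0.13 ± 0.064, adjusted p 0.172) in the authors' deposited table. For Srcap, 61.7% of the annotated exon bases also belong to a predicted gene on the same strand, Gm42715. Smarcad1, a motor that works alone and is known from the upkeep of silent chromatin, had 5.84 CPM per kb with doxycycline and 5.91 CPM per kb without (-0.017 ± 0.073, adjusted p 0.877) in the authors' deposited table.

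Starts of most of these genes that could be matched are rich in CG dinucleotides, a feature of many mammalian promoters, above all of broadly expressed genes. The regions from 250 bases before to 50 bases after the start are shown for Ino80, a motor that fell, and Bptf, a partner that rose, with CG dinucleotides in capitals (RefSeq, GRCm38.p6, strand minus for both, chr2:119477638-119477937 and chr11:107132098-107132397).
Ino80: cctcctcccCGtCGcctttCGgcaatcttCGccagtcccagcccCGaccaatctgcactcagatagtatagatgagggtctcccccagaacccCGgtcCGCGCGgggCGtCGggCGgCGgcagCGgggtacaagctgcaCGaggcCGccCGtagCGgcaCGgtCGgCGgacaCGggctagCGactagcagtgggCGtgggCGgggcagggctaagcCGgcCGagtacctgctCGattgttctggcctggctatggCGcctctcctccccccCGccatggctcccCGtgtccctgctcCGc
Bptf: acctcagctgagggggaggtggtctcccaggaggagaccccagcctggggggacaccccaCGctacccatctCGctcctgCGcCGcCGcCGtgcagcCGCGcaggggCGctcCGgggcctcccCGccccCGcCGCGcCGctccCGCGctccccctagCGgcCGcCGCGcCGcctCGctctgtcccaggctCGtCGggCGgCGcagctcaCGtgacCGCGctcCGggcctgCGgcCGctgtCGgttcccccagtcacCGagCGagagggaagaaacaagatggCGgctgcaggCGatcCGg
Such regions were matched for 30 members, and not for Bcl7a, Baz1a, Arid2, Smarce1, Ss18 and Cecr2, so 4 of the 6 called members were searched. The region lay at the start of the row used for 26 of the 30, but 5340 bases from it for Smarcd2 and 3996 bases for Dpf1. The median was 32 CG dinucleotides, beside 20 for 12305 regions of tested genes; 23 of the 30 lay above that value and 6 below it (Smarcd2, Baz2b, Smarca1, Srcap, Dpf3 and Smarcad1). The letters CATAAA, part of the sequence that CDX proteins are known to bind, were in 0 of the 30 on either strand, beside 6.45% of the regions of tested genes. The shorter ATAAA, which CATAAA contains, was in 4 of 30 (Smarcd1, Smarcd2, Baz2b and Smarcad1), beside 25.4%, and the regions of the 4 called members that were searched lack it. A match is a description of letters in a window of 300 bases and says nothing of binding there or elsewhere.

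**Figure D2:**
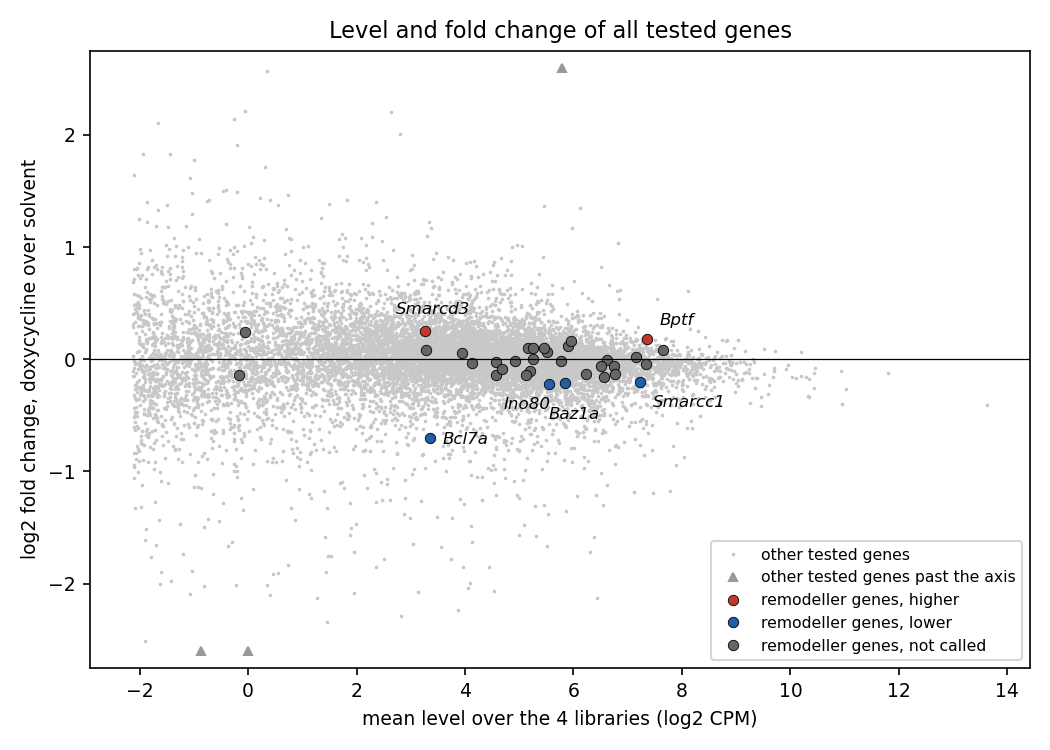
Mean level over the 4 libraries (x axis, log2 CPM) and log2 fold change, doxycycline over solvent (y axis), for 12355 tested genes; coloured points are remodeller genes. The members other than Bcl7a lie within the dense band around 0, Dpf1 and Dpf3 at the left and most others to the right of the middle.

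Levels per kilobase of exon spanned a wide range, between 0.395 CPM per kb for Dpf1 and 31.5 CPM per kb for Baz1b as means over the libraries. After Baz1b came Smarcb1 (28.6 CPM per kb with doxycycline, 27.2 without), Smarcc1 (24.9 with doxycycline, 28.6 without), Smarca4 (25.2 with doxycycline, 26.0 without) and Smarca5 (22.9 with doxycycline, 23.9 without). At the low end stood Baz2b, Bcl7a, Dpf3 and Dpf1, and also Bcl7c by its long row (2.76 CPM per kb), though not by its short one (16.5 CPM per kb). With the row of highest level per kilobase in place of the highest mean level, no other member's level moved by as much as 1.5-fold. No spread between libraries is known for these levels, so the order of neighbours was not tested.

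**Figure D3:**
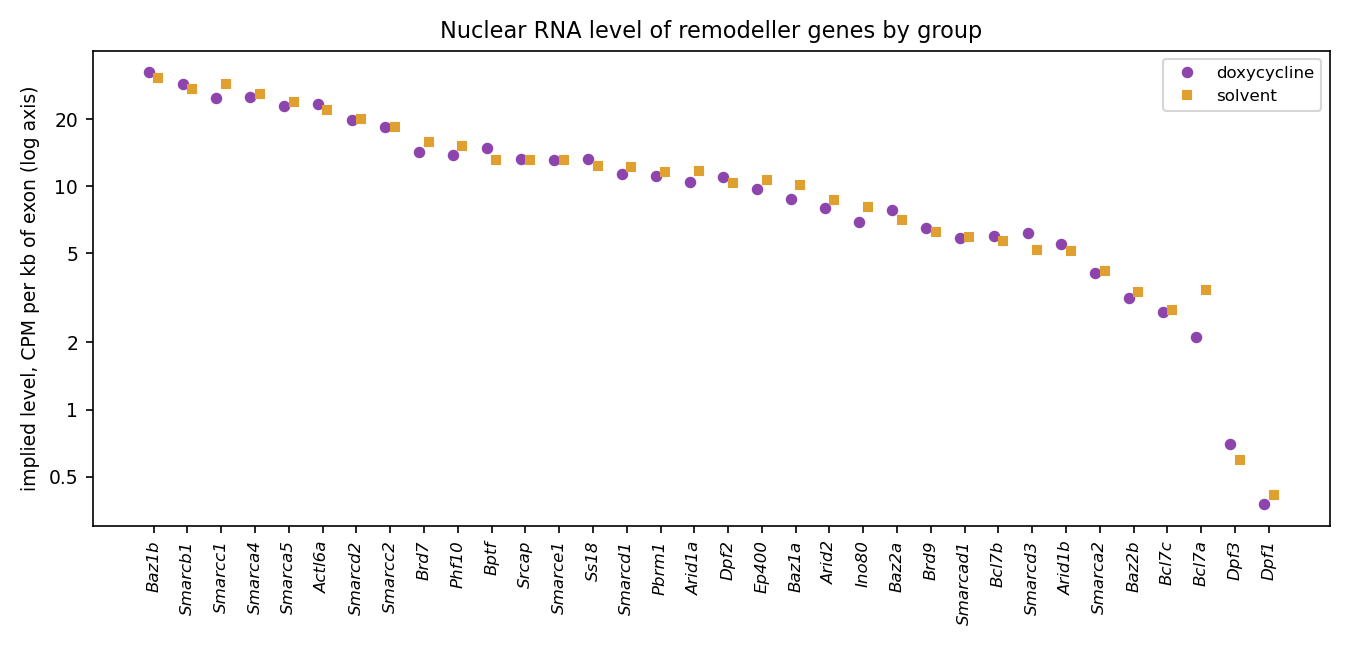
Implied level of each tested remodeller gene in CPM per kilobase of exon (log axis), circles for doxycycline and squares for solvent, ordered by mean level. The groups nearly coincide for most genes, and the widest gap is that of Bcl7a at 2.12 with doxycycline and 3.44 with solvent.

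Across 15 paralogue pairs with both members tested, the 95% interval of the difference in log2 fold change excluded 0 in 8, and in 2 with widened standard errors. These intervals are not adjusted for the number of pairs, and some pairs share a gene. The share over other pairs of tested genes was not computed, so the count does not show that paralogues differ more than other genes. Besides the pairs of Bcl7a, Arid1a and Smarcc1, the 8 hold Baz1a minus Baz1b (-0.29, -0.47 to -0.11) and Baz2a minus Baz2b (0.25, 0.055 to 0.44). They also hold Smarcd1 minus Smarcd3 (-0.36, -0.59 to -0.13) and Smarcd2 minus Smarcd3 (-0.27, -0.50 to -0.049). For Smarca4 minus Smarca2 the difference was -0.017 with an interval of -0.21 to 0.17, and for Ep400 minus Srcap -0.15 with an interval of -0.33 to 0.025, which do not show that the paralogues respond alike.

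**Figure D4:**
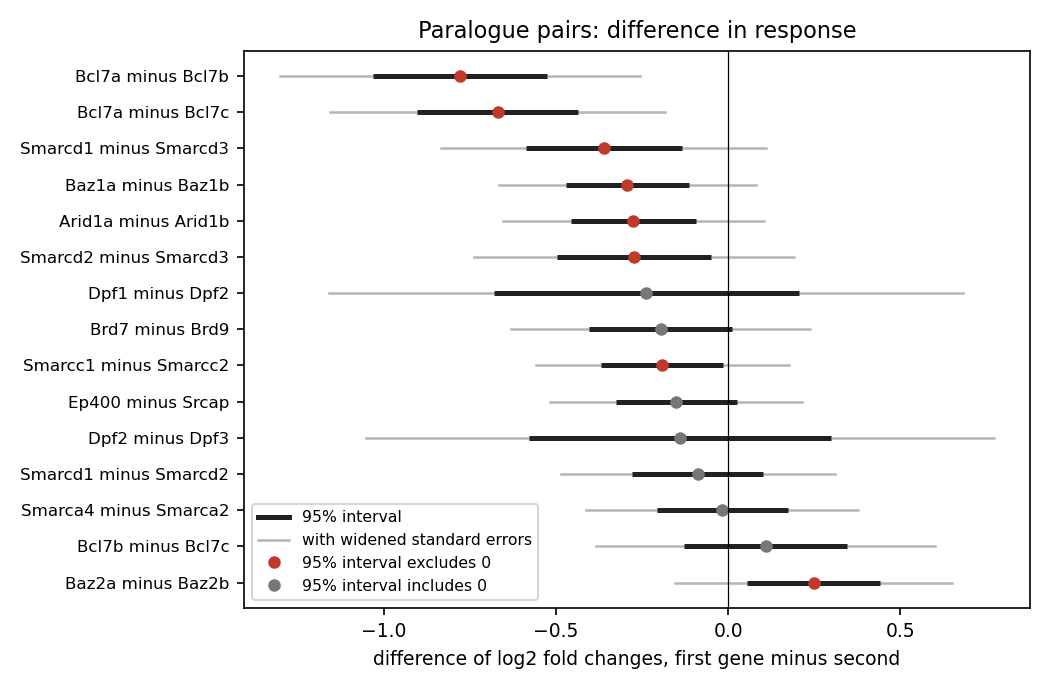
Difference in log2 fold change, first gene minus second, for 15 paralogue pairs; dark bars are 95% intervals and pale bars the intervals with standard errors widened 2.08-fold. Only Bcl7a minus Bcl7b and Bcl7a minus Bcl7c lie clear of 0 with the pale bars.

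Transcript rows of one gene gave nearly the same value. Among 17 members with more than 1 row, the widest range was 0.14 on the log2 scale, in Dpf3, followed by 0.075 in Smarcad1, in the authors' deposited table. Both rows of Bptf were called higher (0.18 each) in the authors' deposited table, and no row of the other 16 was called. Rows of 1 gene share most of their reads, so this is no replication.

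The remaining subunits of the same complexes gave few calls. Of 43 further subunits, 40 were tested, 1 rose, 1 fell and 38 did not pass, 5.0% called beside 24.7% of all tested genes, in the authors' deposited table. Ss18l1, the relative of Ss18 known from neurons, rose to 4.65 CPM with doxycycline, against 3.68 CPM without (0.34 ± 0.12, adjusted p 0.0279), in the authors' deposited table. Bicral, a subunit of ncBAF, fell to 13.8 CPM with doxycycline, against 17.4 CPM without (-0.33 ± 0.081, adjusted p 5.66e-04), in the authors' deposited table. Actl6b, a subunit gene of neurons, averaged 0.283 counts per library, and Bcl11a and Bcl11b were listed without reads in the authors' deposited table. Of 12 other Snf2 family ATPase genes, Smarcal1, which remodels stalled replication forks, rose (0.37 ± 0.089), and Zranb3, which acts at such forks as well, fell (-0.56 ± 0.11), in the authors' deposited table. The other 10 did not pass, and the 2 calls are 16.7% of the list.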

How the data were processed

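Nuclear RNA was measured in 4 directional libraries, each from 500000 cells, with groups taken from the titles. The labels do not say whether replicates are separate cultures, so the spread behind the p-values may be technical. The treatment label gives the dose per microlitre, the extraction protocol per ml.

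Tools named in the submitters' processing notes, without their roles, are HOMER 4.10, limma, edgeR, Picard, STAR 2.7.1a and SAMtools 1.10, and the build is mm10. The authors deposited 1 table of 40739 transcripts. Per the file headers it holds a log2 fold change, a mean log2 level, a t score, a p-value and an adjusted p-value in limma's format, and other columns, the transcript's start, end and exon length. The log2 level has a floor shared by 9211 rows, read here as log2 CPM with 0.5 counts added and no reads, from which the depth follows. All those rows have a log2 fold change of -0.21.

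The standard error was the log2 fold change divided by t, intervals are at 95% with normal errors, and group levels are the mean level plus or minus 0.5 times the log2 fold change. Over 9441 genes, level and fold together account for 99.2% of the variance in log standard error, so errors follow a trend common to all transcripts and not each gene's own replicates. Exon overlaps used GENCODE M21. Calculations used Python 3.11.15, pandas 2.3.3, scipy 1.17.1 and statsmodels 0.14.6 and were tested on simulated data. The members and lists were chosen with earlier results of these data known. Every member is named, and genes of other lists only where called, apart from markers, neighbours and subunits with almost no reads, which were named after their values were seen.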

Additional observations from a re-analysis of the deposited data

How the results depend on the processing

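No paired analysis was possible because the deposited table holds no values per library; for the same reason no library could be left out. The number of called members was 6 in the main setting and 6 with the longest transcript row, without a count floor, at a floor of 50 counts, with p adjusted over the tested genes and with the trend with level removed, although the last lost Smarcc1 and Smarcd3 and gained Baz1b and Baz2a. All genes called were 24.7% in the main setting, 13.1% without a floor, 26.5% at 50 counts, 27.5% with p adjusted over the tested genes and 26.3% with the trend removed. The members called were 8 when centred on ribosomal protein genes (29.2% of all genes), and 4 of 17 without members whose exons overlap another gene, a choice made after seeing the data. Under that last choice a member was dropped for an overlap of any size, and the share of all genes was not computed. At an adjusted p under 0.01 the number of called members was 2 (Bcl7a and Ino80), beside 17.9% of all genes, and with all standard errors multiplied by 2.08, the robust SD of t, it was 1 (Bcl7a), while all genes called were 576, or 4.66%. That factor also holds real changes, so it is a stricter test and no measure of replicate spread. For the further subunits, 2 were called in the main setting, 5 when centred on ribosomal protein genes, 1 at an adjusted p under 0.01, 1 with the trend removed and 0 with widened standard errors; the causes were not tested. Centring moved the share of rises among all called genes to 60.0%, against 45.7%. Of 48 values of the 6 called members under 8 alternatives, 37 kept direction and call, 11 kept direction and lost the call, and 0 turned round. The longest-row setting and both changes of the count floor left the fold change and adjusted p of these 6 genes untouched, so their calls could not move there. Only centring and trend removal altered a fold change, so a direction could turn round only under those. The tally is therefore no measure of robustness. The median log2 fold change of the members lay between -0.028 and 0.022. The level of Bcl7c was 16.5 CPM per kb by its short row, a choice made after seeing the data, against 2.76. Low counts limit Dpf1, Dpf3 and Cecr2.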
